A study of Mus musculus with 4 samples.

Results

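NF-kappaB subunits and their inhibitors were followed here by the open chromatin around their genes. The 10 genes were the subunit genes Nfkb1, Nfkb2, Rel, Rela and Relb, the inhibitor genes Nfkbia and Nfkbie, the genes of the atypical nuclear inhibitors Nfkbid and Nfkbiz, and Tnfaip3. Peaks that lay within a gene record of mm10 or within 20 kb on either side of it were collected from 4 peak lists and merged where they shared at least 1 base. This gave 115 of the 93679 merged regions of the whole series, and of these 22 lay within 1 kb of a transcript start of the member gene itself, 19 lay within 1 kb of a start of a neighbouring gene only, and 74 were distal. Each gene had between 4 (Relb) and 32 (Nfkb1) regions.

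The data came from an assay for transposase-accessible chromatin with sequencing (ATAC-seq), in which a transposase cuts where DNA is free of nucleosomes, so that stacks of fragments mark open chromatin. Spleens of male wild-type C57BL/6 mice, aged 7 weeks per the labels, gave the naive CD4+ T cells, which had been sorted as CD62Lhigh CD44low CD25-. All cells received plate-bound anti-CD3 at 5 µg/ml, anti-CD28 at 1 µg/ml, TGF-β1 at 5 ng/ml and IL-2 at 10 ng/ml for 48 h, which polarizes them towards induced regulatory T cells (iTreg). The iTreg+IL-4 cultures also received mouse IL-4 at 15 ng/ml and the iTreg+PBS cultures did not, with 2 libraries in each condition. Per the study, the samples were pooled and biologically independent. They came from mice of a single strain and sex, and fewer open cells and less open chromatin per cell cannot be told apart in such bulk libraries.

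NF-kappaB is a dimer of Rel-family proteins that stays in the cytoplasm while an IkappaB protein covers its nuclear localization signal. Signals from the T cell receptor and CD28 activate a kinase complex that marks IkappaB for degradation, and the dimer then enters the nucleus and binds kappaB sites, among them sites in the genes of its own inhibitors and subunits. In T cells the pathway is known for driving activation and IL-2 production, and c-Rel, the product of Rel, for its part in the development of regulatory T cells.

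The lists held 77064 and 56645 peaks without IL-4, and 78670 and 67743 peaks with IL-4. Read depth was unknown, since peak lists hold no reads, and the median pileup height was 53 and 32 without IL-4 against 51 and 44 with it, so replicate 2 of each condition had the shorter list and the lower heights. Heights were therefore compared only within a library. Every rank below is the percentage of peaks in the same list with a higher −log10 q, so that a small value is a strong peak and "ranked higher" means a smaller value. Of the promoters of 6 T cell genes (Cd3e, Cd3g, Cd4, Cd28, Lck and Il2ra), all 6 held a peak in all 4 libraries. Among markers of other cells, the promoters of the B cell gene Cd79a, the myeloid genes Lyz2 and Csf1r and the erythroid gene Hbb-bs held no peak in any library, while those of the B cell gene Pax5, the myeloid gene Spi1 and the CD8 T cell gene Cd8b1 held a peak in all 4.

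Sequences upstream of the starts are shown first, because kappaB sites in these promoters are the textbook feature of the family. The RefSeq promoter table of GRCm38 matched 7 of the 10 genes. Below are the 250 bases before a start on the strand of the gene, with matches to the kappaB consensus, searched on both strands, in capitals. Windows that lay mostly in untranslated exons, as that of Tnfaip3 did, are not shown.
Rel, chr11:23770970-23771219, minus strand: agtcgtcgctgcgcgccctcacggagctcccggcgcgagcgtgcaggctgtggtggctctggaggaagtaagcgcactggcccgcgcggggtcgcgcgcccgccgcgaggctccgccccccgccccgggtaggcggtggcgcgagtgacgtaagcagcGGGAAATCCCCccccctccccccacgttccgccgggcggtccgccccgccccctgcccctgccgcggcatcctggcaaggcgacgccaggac
Nfkbia, chr12:55492648-55492897, minus strand: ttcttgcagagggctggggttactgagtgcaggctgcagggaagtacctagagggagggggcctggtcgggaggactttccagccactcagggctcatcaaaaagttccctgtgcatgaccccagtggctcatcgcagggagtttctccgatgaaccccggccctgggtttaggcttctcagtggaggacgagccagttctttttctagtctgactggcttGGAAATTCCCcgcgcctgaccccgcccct
Nfkbie, chr17:45555450-45555699, plus strand: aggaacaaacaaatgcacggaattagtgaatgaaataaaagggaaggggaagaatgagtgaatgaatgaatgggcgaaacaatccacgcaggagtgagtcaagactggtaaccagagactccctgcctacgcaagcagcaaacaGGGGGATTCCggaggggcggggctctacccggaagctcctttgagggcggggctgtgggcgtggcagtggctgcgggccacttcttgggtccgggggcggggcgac
Nfkbid, chr7:30422156-30422405, plus strand: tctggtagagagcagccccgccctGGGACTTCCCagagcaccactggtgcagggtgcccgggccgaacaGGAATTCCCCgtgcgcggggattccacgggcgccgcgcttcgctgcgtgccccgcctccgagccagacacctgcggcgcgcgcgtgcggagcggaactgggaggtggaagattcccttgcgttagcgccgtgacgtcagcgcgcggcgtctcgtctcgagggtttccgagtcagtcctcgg
Nfkb2, chr19:46305445-46305694, plus strand: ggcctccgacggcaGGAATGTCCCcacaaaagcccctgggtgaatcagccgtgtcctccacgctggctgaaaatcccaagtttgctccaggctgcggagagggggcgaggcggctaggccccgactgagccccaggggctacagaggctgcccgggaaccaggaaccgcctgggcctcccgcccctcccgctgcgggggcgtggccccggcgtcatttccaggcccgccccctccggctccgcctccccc

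The Nfkbia match, GGAAATTCCC, began 29 bases before the RefSeq start, and that of Nfkbie, GGGGGATTCC, began 106 bases before it. In Rel, overlapping matches began 92 and 91 bases before the start, and in Nfkbid separate matches began 226 and 181 bases before a start. Of the 7 genes matched, 6 held at least 1 kappaB match in the 250 bases before some RefSeq start, the 5 shown and Tnfaip3, whose GGAAATCCCC began 12 bases before its start. Rela held none. Counted by promoter, 8 of the 12 entries of these genes held a match, beside 7.25% of all 32851 promoters of the table. For Nfkb1 and Nfkbiz, which had no entry in the table, the 200 bases around the centre of the region at the 5′ end of the gene each held GGGAATTTCC on the strand of the gene. The corresponding window of Relb, which had no entry either, held no match.

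Distal and intronic regions on which later results turn are shown as the 200 bases around the region's centre, on the strand of the gene, read from GRCm38. Here and below a region is named by the signed distance of its centre from the 5′ end of the gene record, with downstream positive. Capitals mark any match to 4 motifs on either strand, which were the kappaB consensus, the AP-1 motif TGANTCA, the Runx motif TGTGGTT and a STAT6-type palindrome in which TTC and GAA stand 4 bases apart.
Nfkb1 +2.3 kb, chr3:135689179-135689378, intron, STAT6-type match: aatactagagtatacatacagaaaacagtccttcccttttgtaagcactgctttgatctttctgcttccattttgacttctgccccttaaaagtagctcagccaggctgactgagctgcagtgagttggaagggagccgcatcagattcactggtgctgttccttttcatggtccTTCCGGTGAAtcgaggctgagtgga
Nfkb1 +25.5 kb, chr3:135665909-135666108, intron, no match: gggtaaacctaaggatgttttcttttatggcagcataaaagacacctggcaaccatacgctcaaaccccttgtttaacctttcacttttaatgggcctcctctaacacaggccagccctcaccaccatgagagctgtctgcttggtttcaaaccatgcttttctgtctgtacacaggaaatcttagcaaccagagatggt
Nfkb1 +51.1 kb, chr3:135640326-135640525, intron, kappaB match: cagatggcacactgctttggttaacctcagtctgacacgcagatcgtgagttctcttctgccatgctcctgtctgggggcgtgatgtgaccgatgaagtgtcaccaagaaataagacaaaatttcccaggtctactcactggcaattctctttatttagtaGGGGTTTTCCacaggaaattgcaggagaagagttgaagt
Nfkb1 +84.3 kb, chr3:135607161-135607360, intron, STAT6-type and AP-1 matches: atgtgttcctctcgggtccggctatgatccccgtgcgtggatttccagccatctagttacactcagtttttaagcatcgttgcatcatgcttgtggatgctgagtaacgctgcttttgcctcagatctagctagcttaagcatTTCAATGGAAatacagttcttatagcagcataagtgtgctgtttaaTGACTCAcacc
Rel +16.5 kb, chr11:23754385-23754584, intron, overlapping kappaB matches: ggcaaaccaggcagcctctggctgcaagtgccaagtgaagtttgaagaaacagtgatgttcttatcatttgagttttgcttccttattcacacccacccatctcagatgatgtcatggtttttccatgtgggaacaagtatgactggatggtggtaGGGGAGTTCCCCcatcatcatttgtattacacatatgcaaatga
Rela +11.5 kb, chr19:5648906-5649105, downstream of the gene, kappaB match: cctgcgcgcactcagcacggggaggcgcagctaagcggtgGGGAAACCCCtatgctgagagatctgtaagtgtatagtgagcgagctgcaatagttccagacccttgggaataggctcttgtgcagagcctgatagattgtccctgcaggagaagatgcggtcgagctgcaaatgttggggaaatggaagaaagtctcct
Nfkbia +3.7 kb, chr12:55488865-55489064, downstream of the gene, no match: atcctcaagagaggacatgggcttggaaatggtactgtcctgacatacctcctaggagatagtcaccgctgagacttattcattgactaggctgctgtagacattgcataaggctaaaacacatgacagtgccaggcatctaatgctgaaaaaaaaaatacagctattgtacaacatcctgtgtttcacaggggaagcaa

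All 10 genes had an own promoter region that was called in all 4 libraries, and so did 60.2% of the 21938 protein-coding genes. The regions at the 5′ ends differed in rank, and the order of the genes was as follows. Relb came first at a mean rank of 1.82 over the 4 libraries, clear of the next gene. Nfkbia (5.03), Nfkb2 (5.13) and Tnfaip3 (5.51) formed a group whose neighbours overlapped in range. Rela (9.48), Rel (10.4), Nfkb1 (11.7), Nfkbid (12.6) and Nfkbie (12.8) formed another, in which each neighbouring pair overlapped. Nfkbiz came last at 26.9, and no library of it overlapped with Nfkbie. The order is a description of the lists, and whether it goes with the number of starts that a region spans was not tested.

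**Figure D1:**
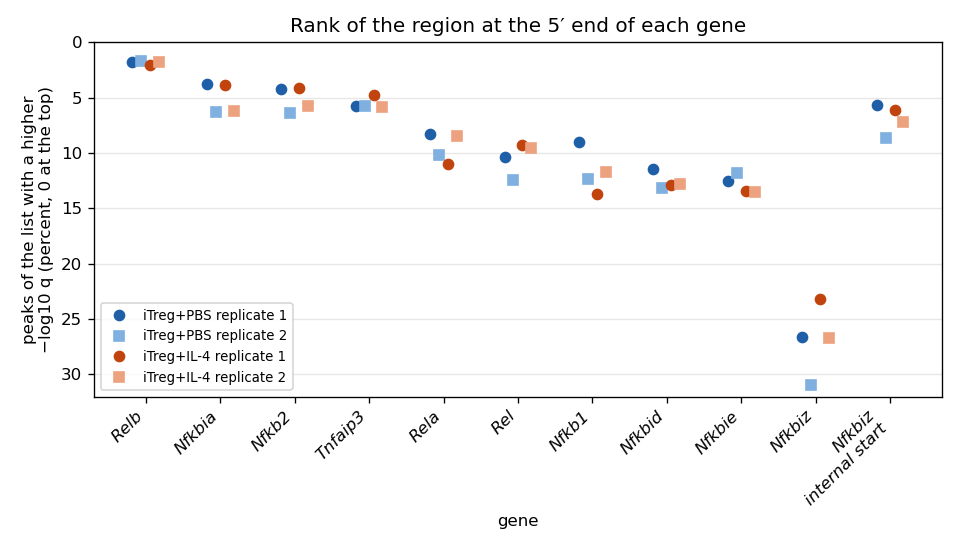
Rank of the region at the 5′ end of each gene (vertical axis, percentage of peaks in the list with a higher −log10 q, 0 at the top), with 1 point per library, blue for iTreg+PBS, orange for iTreg+IL-4, circles for replicate 1 and squares for replicate 2. Relb lies at 1.70 to 2.08 in the 4 libraries and Nfkbiz at 23.2 to 31.0, while the internal start of Nfkbiz, drawn at the right, lies at 5.65 to 8.67.

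Nfkb1 encodes p105, the precursor of p50 that also acts as an inhibitor. The region at its 5′ end (chr3:135691300-135691798) ranked at 9.0 and 12.4 without IL-4 and at 13.7 and 11.7 with IL-4. Both conditions overlapped there, and in lists of equal length both IL-4 libraries ranked behind. The strongest region of the locus was not at the promoter but in an intron at +25.5 kb (chr3:135665557-135666461), at ranks of 3.30 and 8.55 without IL-4 against 3.10 and 8.64 with IL-4. Its height was 620 and 203 without IL-4 against 585 and 320 with it, which was 153% and 119% of the height at the 5′ end of the gene in the same library, and 194% and 114% with IL-4. It thus stood above the promoter in all 4 libraries, and the ranks followed the replicate number rather than IL-4.

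A cluster of open regions lay deep in the Nfkb1 gene body. It comprised regions at +84.3, +86.8, +88.5 and +97.0 kb, each within 1 kb of an internal start in GENCODE, which belonged to a coding transcript at +84.3 kb and to non-coding transcripts at the other 3. At +86.8 kb (chr3:135604318-135605129) the height was 79.5% and 42.4% of that at the 5′ end without IL-4, then 112% and 52.3% with IL-4. At +97.0 kb (chr3:135594030-135595029) it was 66.3% and 37.1% without IL-4, then 72.2% and 43.8% with IL-4. At +88.5 kb (chr3:135602739-135603295) it was 43.8% and 25.9%, then 62.6% and 31.3%. Replicate 2 was the lower in both conditions at all 3. Of the 16 regions of Nfkb1 that were called in all 4 libraries besides the promoter, 10 had both replicates 2 below both replicates 1 on this scale, while the median height of all distal regions was 34.0% and 31.9% of that of all promoter regions without IL-4, then 35.1% and 32.1% with it. The part of list length in this was not tested. The internal start with the weakest mean rank, at +69.8 kb (chr3:135620982-135622457), ranked at 41.1 and 58.2 without IL-4 and at 34.6 and 43.7 with IL-4.

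**Figure D2:**
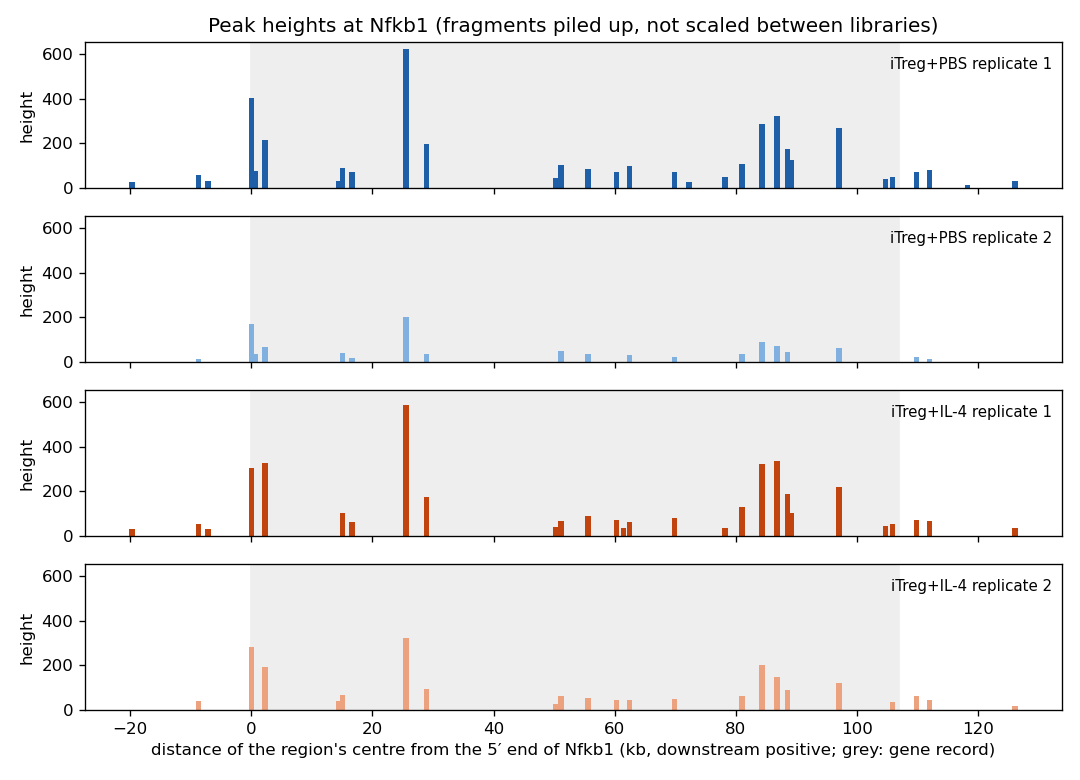
Pileup height of each called region at Nfkb1 (vertical axis, not scaled between libraries) against the distance of its centre from the 5′ end of the gene (horizontal axis, kb, downstream positive), with 1 panel per library and the gene record in grey. The bar at +25.5 kb is the tallest in every panel (620, 203, 585 and 320), and a group of bars stands at +84.3 to +97.0 kb in each panel.

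Nfkb2 encodes p100, which holds RelB in the cytoplasm until it is processed to p52. A single wide own promoter region (chr19:46304220-46305922) ranked at 4.18 and 6.40 without IL-4 and at 4.14 and 5.79 with IL-4. Of the 8 regions at the locus 4 were called in all 4 libraries, and 2 of those 4 were promoter regions of the neighbouring genes Psd and Fbxl15. The distal region of Nfkb2 that was called throughout lay over a coding exon at +4.8 kb (chr19:46309013-46309302) and ranked only between 57.0 and 61.2.

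Rel encodes c-Rel. Its promoter (chr11:23770508-23771679) ranked at 10.3 and 12.4 without IL-4 and at 9.26 and 9.56 with IL-4, a mean of 11.4 ± 1.47 (SD, n = 2) against 9.41 ± 0.208 (SD, n = 2). Both libraries with IL-4 were ahead of both without it in the lists as deposited, but not in lists of equal length. A smaller region in the intron at +1.1 kb (chr11:23769658-23769990), still within 1 kb of the 5′ end, ranked at 48.6 and 64.4 without IL-4 and at 48.9 and 49.4 with IL-4. The best distal region (here and for the other genes, the one called in all 4 libraries whose weakest rank was best), the intronic +16.5 kb region with 3 overlapping kappaB matches (chr11:23754035-23754934), ranked at 27.6 and 48.8 without IL-4 and at 34.3 and 43.0 with IL-4. There the conditions overlapped.

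Rela encodes p65, the main transactivating subunit. Its promoter (chr19:5636852-5638212) ranked at 8.24 and 10.2 without IL-4 and at 11.0 and 8.48 with IL-4. A region just downstream of the gene at +11.5 kb (chr19:5648504-5649507), which holds a kappaB match, ranked at 6.97 and 11.2 without IL-4 and at 6.99 and 8.48 with IL-4. Its height was 97.6% and 82.4% of the promoter's without IL-4 against 118% and 86.8% with it. The downstream region was thus about as tall as the promoter, and neither separated the conditions.

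Relb encodes the partner of p52. Its promoter (chr7:19628291-19629677) had the best rank of the 10 genes, 1.75 and 1.70 without IL-4 against 2.08 and 1.75 with IL-4, with heights of 850 and 452 and of 709 and 701. Both ranks with IL-4 were behind both without it, by a mean of 0.190 percentage points, and when ranks were taken from heights the conditions overlapped. The locus held 4 regions and all 4 were called in every library. The best distal region, over a coding exon at +10.1 kb (chr7:19618986-19619691), ranked at 21.1 and 35.1 without IL-4 and at 25.2 and 27.0 with IL-4.

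Nfkbia encodes IkappaBα, the inhibitor that NF-kappaB induces most directly as its own feedback. Its promoter region (chr12:55491608-55492965) ranked at 3.78 and 6.32 without IL-4 and at 3.86 and 6.18 with IL-4. The means of the conditions were 5.05 ± 1.79 (SD, n = 2) and 5.02 ± 1.64 (SD, n = 2), closer to each other than the replicates of either condition. A region at +3.7 kb (chr12:55488620-55489309), just beyond the 3′ end of the gene, behaved otherwise. It ranked at 39.6 and 55.7 without IL-4 and at 22.2 and 30.0 with IL-4, a mean of 47.6 ± 11.4 (SD, n = 2) against 26.1 ± 5.54 (SD, n = 2). Its height was 31.7% and 29.1% of the promoter's without IL-4 against 47.3% and 42.6% with it. Both libraries with IL-4 lay above both without it on either scale. The best distal region, upstream at −6.6 kb (chr12:55498979-55499578), ranked at 19.7 and 23.2 without IL-4 and at 20.8 and 21 with IL-4 and did not separate the conditions.

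Nfkbie encodes IkappaBε, a second feedback inhibitor. Its promoter (chr17:45555345-45556112) ranked at 12.5 and 11.8 without IL-4 and at 13.4 and 13.5 with IL-4, so both libraries with IL-4 ranked slightly lower. The best distal region was inside the gene over a coding exon at +2.2 kb (chr17:45557277-45558610), at 19.2 and 28.4 without IL-4 against 22.8 and 25.6 with IL-4. A region downstream at +25.9 kb (chr17:45581276-45581958) ranked at 27.8 and 33.0 without IL-4 and at 24.7 and 25.9 with IL-4. Here the order was the opposite, with both libraries with IL-4 ahead. Neither the order at the promoter nor that at +25.9 kb held in lists of equal length.

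Nfkbid encodes IkappaBNS, a nuclear inhibitor that is known to take part in regulatory T cell development. Its promoter region (chr7:30421193-30423319), the widest of the 115 regions at 2127 bases, ranked at 11.4 and 13.1 without IL-4 and at 12.9 and 12.8 with IL-4. None of its 3 distal regions was called in all 4 libraries, and 8 of its 12 regions were promoter regions of neighbours, among them Hcst and Aplp1.

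Nfkbiz encodes IkappaBζ, a nuclear protein that works with p50 as a coactivator. The region at the 5′ end of its record (chr16:55838391-55839473) ranked at 26.6 and 31.0 without IL-4 and at 23.2 and 26.7 with IL-4. The region at an internal start at +16.8 kb (chr16:55821645-55822639) ranked at 5.65 and 8.67 without IL-4 and at 6.14 and 7.23 with IL-4. It was 405% and 395% as tall as the region at the 5′ end without IL-4 and 333% and 386% as tall with it. The tallest promoter region of Nfkbiz was thus the internal one in all 4 libraries. Beside it, the +18.2 kb region (chr16:55820056-55821323), in an intron near the start of a coding transcript, ranked at 27.7 and 35.0 without IL-4 and at 25.6 and 23.2 with IL-4, both libraries with IL-4 ahead. That order did not hold in lists of equal length. The best distal region, upstream at −19.7 kb within Nxpe3 (chr16:55858360-55858908), ranked between 24.4 and 26.9 in all 4 libraries.

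Tnfaip3 encodes A20, a ubiquitin-editing enzyme that shuts off signalling to the IkappaB kinase. Its promoter (chr10:19014464-19015874) ranked at 5.75 and 5.73 without IL-4 and at 4.75 and 5.82 with IL-4. Further own-start regions followed inside the gene. The +6.2 kb region (chr10:19009229-19009699) ranked at 19.2 and 25.9 and then at 19.3 and 22.8, and the +7.0 kb region (chr10:19008490-19008882) at 38.4 and 63.2 and then at 37.7 and 72.3. At +3.7 kb (chr10:19011844-19012119), near a coding start, peaks were called only in replicate 1 of each condition, at ranks of 72.6 and 65.7. The best distal region by its weakest library lay downstream at +27.9 kb (chr10:18987235-18988192), at 37.9 and 50.0 without IL-4 against 52.3 and 49.4 with IL-4. A region upstream at −12.9 kb (chr10:19028279-19028753), named after its values were seen, was ahead of it in 3 libraries, at 34.3 without IL-4 and at 32.5 and 34.5 with IL-4, but ranked at 81.7 in iTreg+PBS replicate 2. No region of Tnfaip3 separated the conditions by rank in the lists as deposited, while 4 did in lists of equal length, with −12.9 kb and +19.9 kb ahead with IL-4 and +27.9 kb and +6.2 kb behind.

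**Figure D3:**
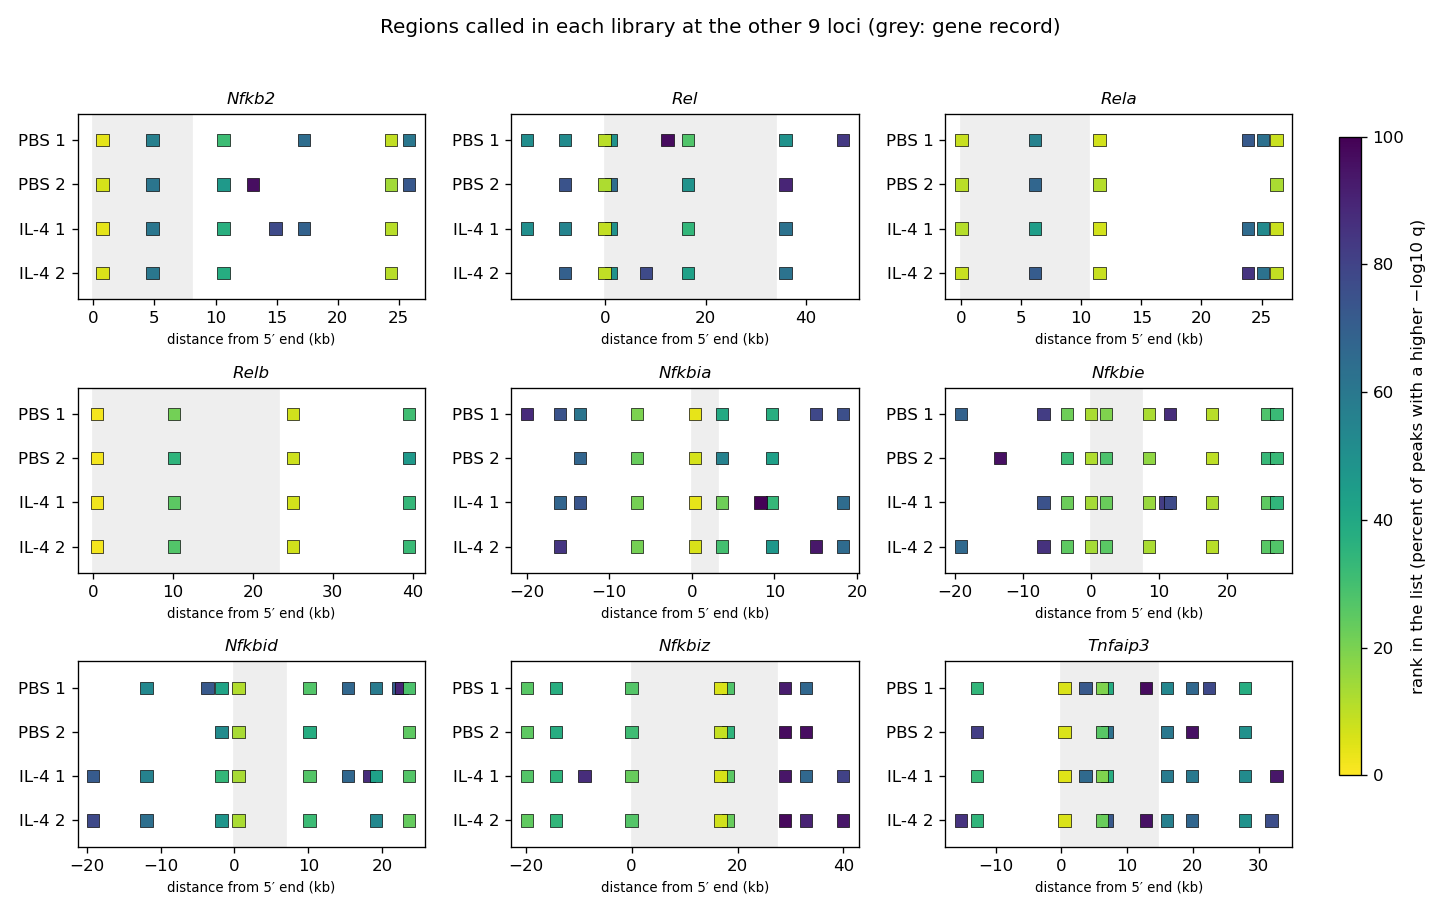
Regions called in each library (rows) at the other 9 loci, placed by the distance of their centre from the 5′ end of the gene (horizontal axis, kb) and coloured by rank (yellow strong, dark weak), with the gene record in grey. The region at the 5′ end is yellow to green in all 4 rows at each locus, and most regions missing from a row are dark (weak) in the rows that have them.

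Presence in the lists differed between the classes of region. Of the 22 own promoter regions 20 (90.9%) were called in all 4 libraries, and of the 19 promoter regions of neighbours 10 (52.6%). Genome-wide, 73.3% of promoter regions of any gene were. That class holds both kinds, so neither member share has a like share beside it. Of the 74 distal regions 33 were called throughout (44.6%), near the 43.7% of distal regions genome-wide. Over all 115 regions 63 (54.8%) were called in all 4 libraries, against 51.0% of all regions. Of the 13 regions called in 3 libraries, 11 lacked a peak in iTreg+PBS replicate 2 alone, the shortest list, as did 72.9% of such regions genome-wide. Of the 18 called in 2 libraries, 10 were shared by replicate 1 of both conditions, which have the longest lists, as were 7106 of 12827 such regions genome-wide. IL-4 libraries shared 2 of the 18, and PBS libraries 2.

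These 4 regions were the whole difference in presence between the conditions. The 2 called only with IL-4 (2 of 115, against 2.60% of all regions) were distal and weak. Nfkbid −19.1 kb (chr7:30402470-30402808) ranked at 71.5 and 77.8 in the IL-4 libraries, with heights of 25 and 19. Nfkbiz +39.9 kb (chr16:55798908-55799140) ranked at 80.2 and 93.8, with heights of 21 and 13. The 2 called only without IL-4 (2 of 115, against 0.698% of all regions) were weak by −log10 q but not by height. Nfkb1 +0.6 kb (chr3:135690780-135691130), a small region beside the promoter over an untranslated exon, ranked at 78.2 and 81.4 in the PBS libraries, and Nfkb2 +25.8 kb (chr19:46330052-46330252), within Fbxl15 and Cuedc2, at 60.4 and 72.9. Their heights were 78 and 38 at Nfkb1 and 86 and 40 at Nfkb2, above the median heights of 53 and 32 of those lists. In lists shortened to the 56645 strongest peaks, only the Nfkb2 region of the 4 was still present in both replicates of its condition and absent from the other condition. Leaving out a library loosens this rule as well. Regions with IL-4 only then numbered 14 without iTreg+PBS replicate 1 (13.6% of all regions), 9 without iTreg+IL-4 replicate 2 (11.1%) and 5 without iTreg+IL-4 replicate 1 (7.25%). Regions without IL-4 only numbered 11 without iTreg+PBS replicate 2 (8.20% of all regions), 5 without iTreg+PBS replicate 1 (3.23%) and 4 without iTreg+IL-4 replicate 1 (3.21%).

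Of the 63 regions called in all 4 libraries, 7 ranked higher in both IL-4 libraries than in both PBS libraries (11.1%), against 19.7% of all such regions, and 3 ranked lower (4.76%), against 5.17%. The members' median difference in rank, IL-4 minus PBS, was −1.52 percentage points, and that of all such regions was −2.05. An exact two-sided permutation test of 2 libraries against 2 cannot give a p below 0.33, and no other test was run on the ranks, so the counts are read only against the genome-wide shares. By gene, taking the best-ranked own promoter region in each library, Rel ranked higher with IL-4 (1 of 10 genes, against 20% of coding genes with a promoter called throughout, or 2638 of 13213) and Relb and Nfkbie ranked lower (2 of 10, against 5.57%). The counts rose when a library was left out, which loosens the rule, and so did the genome-wide shares. Without iTreg+PBS replicate 1, 47 of 62 member regions ranked higher (70.8% of all such regions did) and 4 lower (9.92%). Without iTreg+PBS replicate 2, 11 of 74 ranked higher (24.2%) and 33 lower (36.0%). Leaving out iTreg+IL-4 replicate 1 gave 11 and 9 of 63 (30.2% and 17.9%), and leaving out iTreg+IL-4 replicate 2 gave 28 and 10 of 66 (48.4% and 12.5%).

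Among the regions without overlap, the widest differences towards IL-4 were those of Nfkbia +3.7 kb, given above, and Nfkb1 +2.3 kb. The Nfkb1 region (chr3:135688948-135689609), an intronic region with a STAT6-type match, ranked at 22.8 and 41.7 without IL-4 and at 12.2 and 20.3 with IL-4, a mean of 32.3 ± 13.4 (SD, n = 2) against 16.2 ± 5.72 (SD, n = 2). Its height was 53.5% and 38.8% of the promoter's without IL-4 against 108% and 68.0% with IL-4. In iTreg+IL-4 replicate 1 it was thus as tall as the promoter itself. This percentage depends on the promoter too, which ranked at 9.0 and 12.4 without IL-4 and at 13.7 and 11.7 with IL-4. Nfkb1 +84.3 kb (chr3:135606996-135607525) ranked at 18.6 and 26.7 without IL-4 and at 15.5 and 18.1 with IL-4. Among the same regions, the opposite order was widest at Nfkb1 +51.1 kb (chr3:135640216-135640636), an intronic region with a kappaB match, at 36.5 and 37.8 without IL-4 but 52.5 and 44.8 with IL-4, a mean of 37.2 ± 0.961 (SD, n = 2) against 48.6 ± 5.44 (SD, n = 2). Nfkbiz −14.2 kb, named after its values were seen, completed the 10 regions, at 37.1 and 37.7 in the PBS libraries against 34.8 and 34.1 in the IL-4 libraries.

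**Figure D4:**
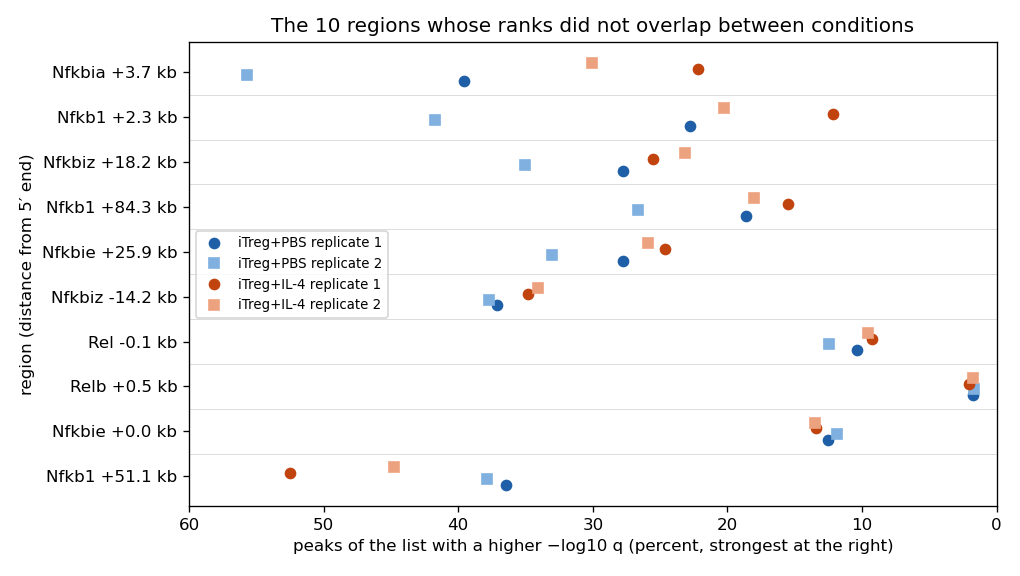
The 10 regions whose ranks did not overlap between conditions (rows, named by gene and distance from its 5′ end), with the rank in each library on the horizontal axis (percentage of peaks in the list with a higher −log10 q, strongest at the right), 1 point per library. Nfkbia +3.7 kb and Nfkb1 +2.3 kb show the widest gaps towards IL-4 and Nfkb1 +51.1 kb the widest gap in the other direction, while Relb lies at 1.70 to 2.08 throughout.

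The direction of these counts depended on the length of the lists. When every list was cut to its 56645 strongest peaks, 6 member regions ranked higher and 7 lower with IL-4, and the shares of all regions called in all 4 libraries became 14.0% and 12.5%. The Nfkbia +3.7 kb, Nfkb1 +2.3 kb, Nfkb1 +84.3 kb and Nfkb1 +51.1 kb regions kept their order, and the promoters of Rel, Relb and Nfkbie, both Nfkbiz regions and Nfkbie +25.9 kb did not. The others that separated the conditions in these lists were Nfkb1 +69.8 kb and the Tnfaip3 regions at −12.9 and +19.9 kb, ahead with IL-4, and the region at the 5′ end of Nfkb1, Nfkb1 +62.5 kb, Rel −8.0 kb, Nfkbie +2.2 kb and the Tnfaip3 regions at +6.2 and +27.9 kb, behind with IL-4. The same 4 regions kept their order when ranks were taken among the regions called in all 4 libraries, and, joined by Nfkbie +25.9 kb, when heights were compared with the gene's own promoter within each library. Ranked by height over the whole list, 3 of the 4 did, and Nfkb1 +84.3 kb did not. By height the promoters of Rel and Nfkbie, both Nfkbiz regions and Nfkbie +25.9 kb also kept their order, while the Relb promoter did not. With the upper 50% of each list, Nfkb1 +2.3 kb and +84.3 kb kept their order. So did the promoters of Rel, Relb and Nfkbie, both Nfkbiz regions and Nfkbie +25.9 kb. Nfkbia +3.7 kb and Nfkb1 +51.1 kb could not be ranked in all 4 libraries there. The former, at 55.7 in iTreg+PBS replicate 2, and the latter, at 52.5 in iTreg+IL-4 replicate 1, fell outside that part of the list.

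The bases inside peaks over each gene and its flanks gave no separation. At Nfkb1 14906 and 9022 bases lay inside peaks without IL-4 against 14715 and 11924 with IL-4. At Nfkbie, whose locus was the most densely covered, 6984 and 5125 bases (14.7% and 10.8% of the locus) did so without IL-4 and 7356 and 6654 (15.5% and 14.0%) with IL-4. At Nfkb2, 3931 and 4002 bases did so without IL-4 against 4126 and 3434 with IL-4. Both conditions overlapped at each of these, and at the other 7 genes. No gene had more bases in both IL-4 libraries than in both PBS libraries (0 of 10, against 19.6% of the 18535 coding genes with a peak), and none had fewer (0 of 10, against 2.29%). The exact two-sided permutation p was between 0.67 and 1 for the 10 genes. Differences in means ran from −186.5 bases at Nfkb2 to 1355.5 at Nfkb1, where the SD was 4161 without IL-4 and 1974 with it (n = 2 each). Rel differed least, with means of 3434 ± 1249 (SD, n = 2) for PBS against 3417 ± 117 (SD, n = 2) for IL-4. The lowest value of a gene was in iTreg+PBS replicate 2 for 9 of the 10 genes, and the counts depended on which library was left out, as did those of all coding genes. Without iTreg+PBS replicate 1, 9 genes had more bases with IL-4 (79.9% of coding genes did), and without iTreg+IL-4 replicate 2, 5 did (56.4%). Without iTreg+PBS replicate 2, 5 had fewer (35.6%), and without iTreg+IL-4 replicate 1, 1 did (12.8%).

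**Figure D5:**
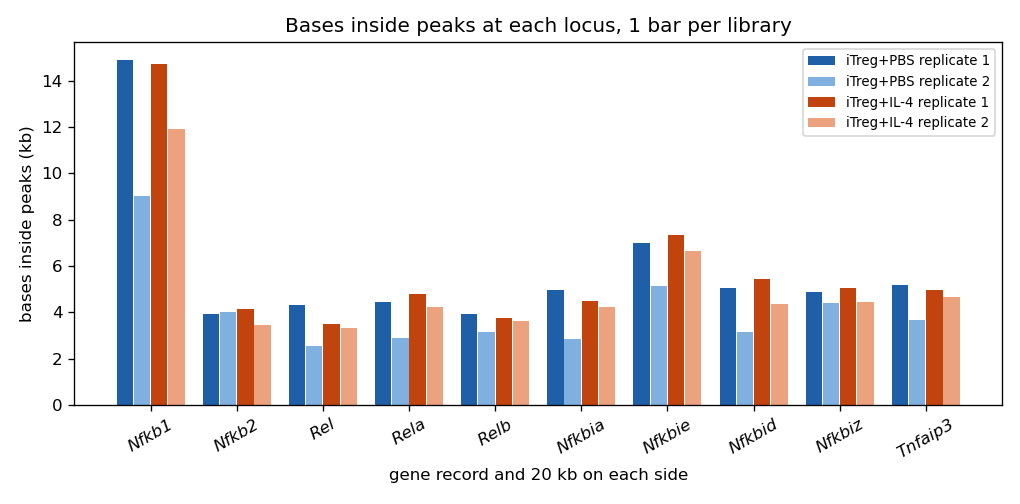
Bases inside peaks (vertical axis, kb) over each gene record with 20 kb on each side (horizontal axis), with 1 bar per library, blue for iTreg+PBS and orange for iTreg+IL-4. The bars of both conditions overlap at all 10 genes, and iTreg+PBS replicate 2 is the lowest at all but Nfkb2.

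Matches to the kappaB consensus were more frequent in the member regions than in the lists as a whole. Of the 22 own promoter regions 7 (31.8%) held a match in the 200 bases around their centre, beside 7.48% of all promoter regions, and of the 74 distal regions 7 (9.46%) did, beside 5.73% of distal regions. These shares are descriptions, since the genes were chosen as a family known to be bound by its own products. The AP-1 motif was found in 11 of 74 distal regions (14.9%, beside 15.1%), the STAT6-type palindrome in 8 of 115 regions (6.96%, beside 5.84%) and the Runx motif in 5 of 115 (4.35%, beside 8.93%). Of the 7 regions ranked higher with IL-4, 2 held the STAT6-type palindrome (Nfkb1 +2.3 kb and +84.3 kb), 2 held the AP-1 motif and 3 held a kappaB match, while these motifs were found in 8.71%, 7.66% and 5.82% of all regions ranked higher. Of the 63 member regions called in all 4 libraries, 6, 7 and 13 held them. A kappaB match was also held by 1 of the 3 regions ranked lower and 1 of the 2 called only without IL-4, and these held none of the other motifs. The 3 regions ranked higher with a kappaB match were the Rel promoter and Nfkbiz +18.2 and −14.2 kb. They did not keep their order in lists of equal length. Neither region called only with IL-4 held a match to any of the 4 motifs.

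The other genes of the pathway had open promoters too. Of 22 genes for further inhibitors, the kinases, the antigen-receptor adaptors, the TRAF and cIAP proteins and the deubiquitinases with their partners, all 22 had a promoter peak in all 4 libraries, beside 60.2% of coding genes. Ranks with IL-4 were ahead in both libraries for 3 (Chuk and Ikbkb, which encode the IkappaB kinases, and Tnip2, an A20-binding protein) and behind in both for 2 (Map3k14, which encodes the kinase of the non-canonical arm, and Otulin, which removes linear ubiquitin). The Ikbkb promoter ranked at 13.4 and 16.2 without IL-4 and at 12.7 and 11.7 with IL-4, and that of Map3k14 at 0.629 and 1.03 and then at 1.05 and 1.08. These shares, 3 and 2 of 22, stand beside the same 20% and 5.57% of coding genes. They rest on the lists as deposited, and these genes were not ranked again in lists of equal length.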

How the data were processed

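The study assayed accessible chromatin in 4 libraries, 2 labelled iTreg+PBS and 2 labelled iTreg+IL-4. The authors mapped read pairs to mm10 with Bowtie2 2.2.5 and called peaks separately for each library with MACS2 2.1.2, and the submitters' processing notes also name bedtools 2.16.2. Caller parameters, removal of duplicates and correction for the transposase offset were not given in the sources used here, and each could move positions, heights or ranks. Each deposited peak carries a q-value on the −log10 scale and a pileup height, which is a signal that the authors did not scale between libraries; both were recognised from their values, since the lists have no header. Read depth was unknown, so neither intervals nor floors were computed, and the number of libraries limits the precision. If the replicates share animals or cultures, their spread is partly technical.

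Software was Python 3.11.15 with scipy 1.17.1, pandas 2.3.3, numpy 2.4.6, pysam 0.24.0 (GRCm38 sequence) and matplotlib 3.10.9. Gene records and starts came from GENCODE M21. Counts over all regions used the 93503 merged regions on assembled chromosomes. Bases inside peaks were compared for each gene by an exact two-sided permutation test. Regions called in all 4 libraries were compared by rank, and a difference was counted where the conditions did not overlap. Regions described singly were every own promoter region, the best distal region of each gene, regions called in a single condition, and up to 5 of the widest rank differences in each direction. Members, gene lists and motifs were chosen with earlier results of these data known. Some marker genes of other cell types are not reported here. The counting was tested on simulated lists. Alternatives used stricter or equal-length lists, other flanks, overlaps, ranks and promoter widths, RefSeq records, a replicate block, and each library left out.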

Additional observations from a re-analysis of the deposited data

How the results depend on the processing

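Values are given in the order genes with more bases, genes with fewer bases, regions called in all libraries, only with IL-4, only without IL-4, ranked higher and ranked lower, for which the lists as deposited gave 0, 0, 63, 2, 2, 7 and 3. With the upper 50% of each list the values that moved by over 1.5 times were 2 genes with more bases, 39 regions called throughout, and 0 and 0 called in a single condition. With lists of equal length they were 1 gene with more bases (Nfkbia), 1 with fewer (Nfkbiz), 1 region only with IL-4 and 7 ranked lower. With 10 kb flanks, 0 regions were called only with IL-4 and 1 only without it, and with 50 kb flanks 102 regions were called throughout, 6 only with IL-4, 16 ranked higher and 6 lower. A reciprocal overlap of 50% left 1 region only without IL-4, and ranks among the regions called throughout gave 7 ranked lower. Leaving out each library gave 0 to 9, 0 to 5, 62 to 74, 2 to 14, 2 to 11, 11 to 47 and 4 to 33. These rules are looser with 3 libraries by construction. The causes of the other shifts were not tested. The number of members with an own promoter region called throughout was 10 under all 9 alternatives run for it, among them the 5′ end of the gene record alone, chosen after seeing the data. The comparison of heights with the own promoter, also chosen after seeing the data, gave 6 regions higher and 4 lower.

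With the replicate number as a block, so that a change had to have the same direction within both same-numbered pairs, 4 genes had more bases (47.8% of coding genes did) and 0 fewer (6.20%), and 23 of 63 regions ranked higher (43.4% of all such regions did) and 5 lower (12.3%). The numbers are not shown to pair the samples. Deviations from the condition means of same-numbered libraries correlated at 0.45 over 47710 regions, which share their libraries and list lengths. Read depth, unknown here, limits what absence from a list can mean.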
